A study of Homo sapiens with 10 samples.

Results

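The CHK1 inhibitor prexasertib and the topoisomerase I poison camptothecin were compared directly, without the DMSO control, after 4 h at 100 nM each. The comparison was made in CCRF-CEM cells, an established human leukemia line of T lymphoblast type, with and without SLFN11. It took 4 of the 10 libraries of the series: wild-type parental cells, which are positive for SLFN11, with prexasertib or with camptothecin, and cells with the SLFN11 gene knocked out with prexasertib or with camptothecin. The other libraries are a DMSO control of each genotype and prexasertib at 100 nM for 2 h or 6 h in each genotype. They were used only where a sentence says so. Each group is 1 library made from cells in culture. The sources used here do not say whether the knockout line is a single clone. The members are the accessible regions of these 4 libraries, taken by ATAC-seq, which uses a transposase to cut and tag open DNA. The 4 peak lists, restricted to chromosomes 1 to 22 and X, merged into 27843 regions, against 35505 for the merge of all 10 lists.

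Prexasertib inhibits CHK1, the checkpoint kinase that restrains origin firing and stabilises replication forks downstream of ATR. Camptothecin traps topoisomerase I on DNA, and a replication fork that meets the trapped enzyme can break, so both drugs stress replication by different routes. SLFN11 is recruited to stressed replication forks and is known for sensitising cells to agents that damage DNA during replication, with a block of replication and opening of chromatin near the stressed forks.

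The series record states that the raw data of parental cells with prexasertib at 4 h were truncated and cannot be replaced. The sources used here do not say whether the deposited peaks were called before or after that loss. Every parental comparison of the drugs at 4 h rests on this library, so no such value can be given without it, and values with the 6 h and 2 h prexasertib libraries in its place are given with the time named. With 1 library per group there is no replicate check and no test, and the intervals cover counting error over regions or reads only. The depth of a library was read from its genome-wide background pileup, the lowest background recovered at any summit of its list. It was 1.33 in parental prexasertib, 1.45 in parental camptothecin, 1.85 in knockout prexasertib and 1.74 in knockout camptothecin. The sources used here do not say which reads this background counts, so reads of peaks or of mitochondrial DNA may be part of it. In each genotype the drug with the higher background was also the drug with more regions called.

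The direction of the drug difference was opposite in the genotypes. In parental cells 21577 regions were called with camptothecin and 17644 with prexasertib. In knockout cells the order turned round, with 21329 regions called with prexasertib and 18666 with camptothecin. Of all 27843 regions, 14036 (50.4%) were called in all 4 libraries.

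Regions called with 1 drug carried this contrast. In parental cells 5660 regions (20.3% of all) were called with camptothecin only and 1727 (6.2%) with prexasertib only, beside 15917 called with both. In knockout cells 4893 regions (17.6%) were called with prexasertib only and 2230 (8.01%) with camptothecin only, beside 16436 called with both. Prexasertib thus held 23.4% of the parental regions called with 1 drug (exact Clopper-Pearson 95% interval 22.4 to 24.4) and 68.7% of the knockout ones (67.6 to 69.8). Scaling the background pileup of all 4 libraries to the lowest one gave 28.2% and 67.1%, and lists cut to equal length gave 49.1% and 50.9%, near equality by construction.

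**Figure D1:**
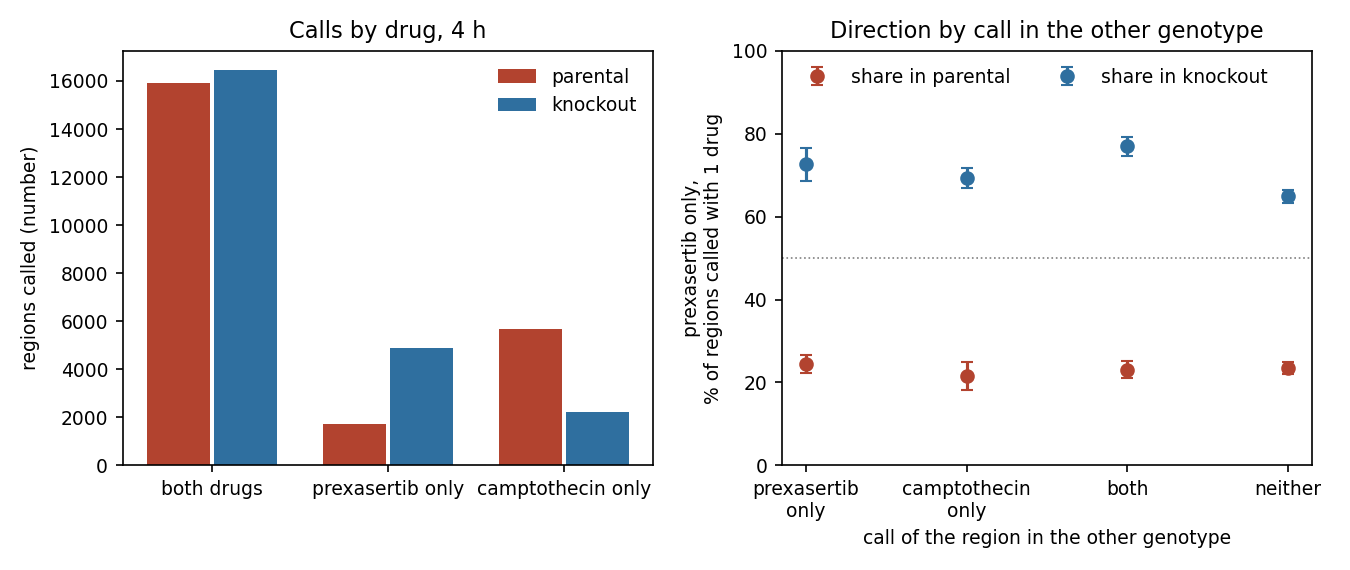
Left, number of regions called with both drugs, with prexasertib only and with camptothecin only at 4 h in each genotype. Right, prexasertib only as a percentage of the regions called with 1 drug in a genotype, split by the call of the same region in the other genotype, with exact 95% intervals for counting error; the parental share stays between 21.5% and 24.4% and the knockout share between 64.9% and 77%.

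Only some of the regions called with 1 drug changed sides. A region called with camptothecin only in parental cells and with prexasertib only in knockout cells was crossed in the direction of the totals, and 1083 regions (3.89%) were. They made up 19.1% of the parental camptothecin-only regions and 22.1% of the knockout prexasertib-only regions. Over all 27843 regions, 17.6% were prexasertib only in knockout cells and 20.3% were camptothecin only in parental cells. In the other direction 131 regions (0.47%) were crossed. They made up 7.59% of the parental prexasertib-only regions and 5.87% of the knockout camptothecin-only regions. Over all regions, 8.01% were camptothecin only in knockout cells and 6.2% were prexasertib only in parental cells. The crossed shares thus lay near those over all regions, and the crossed counts alone do not show a reversal tied to single loci.

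Calls with the same single drug in both genotypes were also found. Camptothecin alone was called in both genotypes in 479 regions, 8.46% of the parental and 21.5% of the knockout camptothecin-only regions. Prexasertib alone was called in both in 349 regions, 20.2% of the parental and 7.13% of the knockout prexasertib-only regions. The shares of both same-drug sets also lay near the shares of the classes over all regions given above. Among regions with 1 drug in knockout cells, prexasertib held 69.3% (67.0 to 71.6) where parental cells had camptothecin only and 72.7% (68.5 to 76.6) where they had prexasertib only. Those intervals overlap. Read the other way, prexasertib held 24.4% (22.2 to 26.7) of parental regions with 1 drug where knockout cells had prexasertib only and 21.5% (18.3 to 25.0) where they had camptothecin only. The knockout share was 77% where parental cells had both drugs called and 64.9% where they had neither.

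Most regions called with 1 drug only were weak. Signal strength was read as the deposited −log10 q of the strongest summit, the caller's measure of confidence, for which every list starts just above 2. Its median was 3.72 in the parental prexasertib-only regions and 4.30 in the parental camptothecin-only regions, against 14.8 in parental prexasertib at regions called with both drugs. In knockout cells it was 4.35 with prexasertib only and 3.84 with camptothecin only, against 18.2 in knockout prexasertib at regions called with both. The median summit pileup of the 4 single-drug classes was 11, 12, 14 and 12 fragments in that order, and the smallest pileup that could be called at background was 8 fragments in both parental libraries and 9 in both knockout libraries. Most of these regions therefore lay a few fragments above the calling limit.

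Regions called with 1 drug were narrow. Their median width was 254 and 277 bp in parental cells and 303 and 287 bp in knockout cells, against 568 and 695 bp for the prexasertib peaks of regions called with both drugs. They lay a median of 46.2, 42.6, 37.6 and 52.3 kb from the nearest region called in all 4 libraries, in the same order. No reference distance was taken, so these values cannot be read as near or far. A −log10 q of at least 10 was reached by 34 parental prexasertib-only regions (1.97%), 383 parental camptothecin-only regions (6.77%), 315 knockout prexasertib-only regions (6.44%) and 69 knockout camptothecin-only regions (3.09%). Among regions called with both drugs, 64.2% reached it in parental prexasertib and 71.6% in knockout prexasertib.

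In libraries that took no part in choosing the classes, the parental single-drug classes were called at similar rates as a whole. In their stronger part the rates differed in the parental 6 h library. Of the parental prexasertib-only regions 46.1% (43.7 to 48.5) were called with prexasertib at 6 h in the same cells, and of the camptothecin-only regions 48.4% (47.1 to 49.7). With prexasertib at 2 h the shares were 18.1% and 17.4%, and in parental DMSO they were 20.7% and 19.6%. Among regions with a −log10 q of at least 5, a subset chosen after the data were seen, 59.9% (55.3 to 64.4) of the prexasertib-only and 68.1% (66.1 to 70.1) of the camptothecin-only regions were called at 6 h. In that subset the shares in knockout DMSO were 45.1% (40.6 to 49.8) and 51.5% (49.4 to 53.7), by intervals that overlap. In parental DMSO they were 30.2% and 28.4%, and with parental prexasertib at 2 h 25.5% and 26.2%. In this subset the camptothecin-only share was thus the higher one with parental prexasertib at 6 h, which describes single libraries and is not a test. The camptothecin-only class as a whole also had the higher median −log10 q, as given above. The part of that difference in these shares was not tested. Over all 27843 regions, 71.9% were called in the parental 6 h library, 53.7% in the parental 2 h library and 54.7% in parental DMSO.

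In knockout cells the prexasertib-only regions were called more often than the camptothecin-only regions in each of the 3 other knockout libraries. At 2 h of prexasertib the shares were 58.0% (56.6 to 59.4) and 50.1% (48.0 to 52.2). At 6 h they were 53.9% (52.5 to 55.3) and 44.3% (42.2 to 46.4), and in knockout DMSO 39.3% (37.9 to 40.7) and 34.3% (32.3 to 36.3). The same order held in the parental libraries, including camptothecin, where 43.5% of the knockout prexasertib-only regions and 35.5% of the knockout camptothecin-only regions were called. In parental DMSO the intervals overlapped, with 19.7% (18.6 to 20.8) and 17.3% (15.7 to 18.9). There the shares were 28.6% and 28.1% among regions with a −log10 q of at least 5. Over all 27843 regions the shares were higher, 76.5% in the knockout 2 h library, 74.1% in the 6 h library and 67.6% in knockout DMSO. The prexasertib-only regions also had the higher median −log10 q, as given above, and the part of that difference in these shares was not tested beyond one subset. Among regions with a −log10 q of at least 5, the shares in knockout DMSO were 55.3% (53 to 57.5) and 50.6% (46.5 to 54.7), and those at 6 h were 71.3% (69.2 to 73.3) and 60.0% (55.9 to 64.0).

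The 1083 regions crossed in the direction of the totals were also read in the libraries not used to choose them. The shares called were 61.4% (58.4 to 64.3) with parental prexasertib at 6 h, 70.0% (67.2 to 72.7) with knockout prexasertib at 2 h, 65.5% (62.5 to 68.3) with knockout prexasertib at 6 h and 44.9% (41.9 to 47.9) in knockout DMSO. Each is below the share over all regions given above, which includes the 14036 regions called in all 4 libraries. Of all parental camptothecin-only regions 48.4% were called with parental prexasertib at 6 h. Of all knockout prexasertib-only regions 58.0% were called with knockout prexasertib at 2 h. The crossed regions are the part of both classes with a call in each genotype. They were called in 22.6% in parental DMSO and 22.2% with parental prexasertib at 2 h. The 131 regions crossed the other way gave 51.9% (43.0 to 60.7), 66.4% (57.6 to 74.4), 56.5% (47.6 to 65.1) and 46.6% in the same libraries.

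Summit height gave the same contrast in regions that needed no call to differ. Height is the highest summit pileup in a region divided by the background pileup of the library, and it could be set in 14004 of the 14036 regions called in all 4 libraries. Its median was 24.9 in parental prexasertib and 29.7 in parental camptothecin, against 23.8 in knockout prexasertib and 19.0 in knockout camptothecin. Camptothecin gave the tallest and the lowest median of the 4, while the prexasertib libraries lay close together. In a bulk library, more cells with a region open and a region more open in each cell cannot be told apart.

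Per region, prexasertib over camptothecin had a median log2 height ratio of -0.22 (-0.23 to -0.21) in parental cells, a 0.859-fold height, and 24.4% of regions were higher with prexasertib. In knockout cells the median was 0.30 (0.29 to 0.30), a 1.23-fold height, and 81.0% of regions were higher with prexasertib. The knockout ratio exceeded the parental ratio by a median of 0.52 (0.51 to 0.53), and in 85.4% of regions it was the larger. Peak width followed, with a median log2 width ratio of -0.13 (-0.13 to -0.12) in parental cells and 0.13 (0.12 to 0.13) in knockout cells. The medians of the longest peak were 611 bp with prexasertib and 683 bp with camptothecin in parental cells, and 743 and 659 bp in knockout cells.

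**Figure D2:**
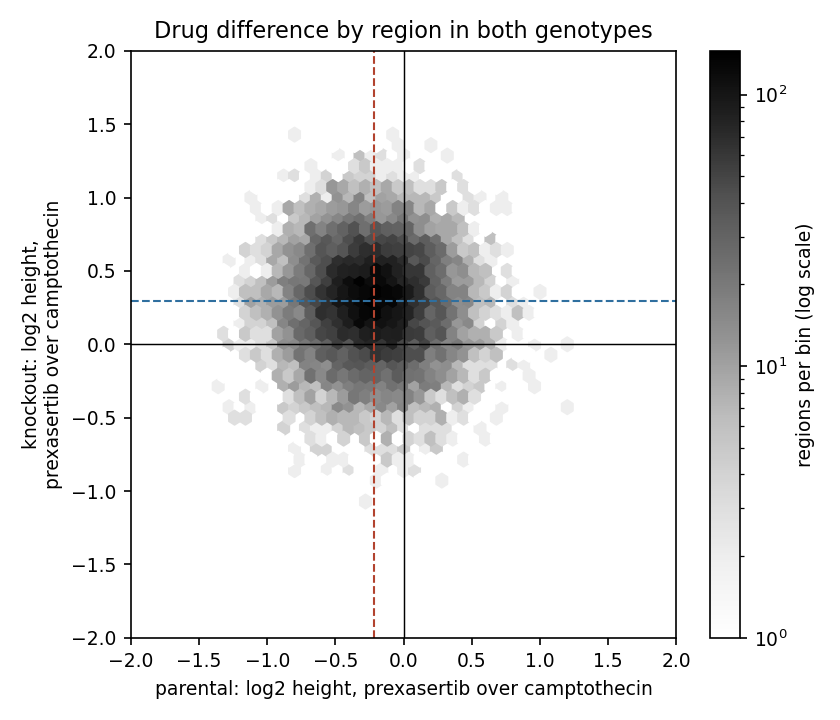
Log2 height of prexasertib over camptothecin in parental cells (horizontal) and in knockout cells (vertical) for the 14004 regions, shaded by the number of regions per bin on a log scale; dashed lines are the medians, -0.22 and 0.30. The cloud is shifted into the upper left and is round, with a correlation across regions of -0.02.

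The ratios of the genotypes were hardly correlated region by region. Across the 14004 regions the parental and knockout ratios had a Pearson r of -0.02 and a Spearman rho of -0.02, given as a description since regions share libraries and depth. The SD of the log2 ratio over regions was 0.34 in parental cells and 0.35 in knockout cells, where the counting error of the pileups alone would give 0.37 and 0.36. The difference between the genotypes had an SD of 0.50 against 0.52 from counting error. Counting error as modelled is larger than the spread observed in these regions, all of which had to be called in 4 lists, so this comparison cannot show whether single regions differ beyond the shift.

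The counts of regions by sign depended on the shift. As measured, 8716 regions (62.2%) were higher with camptothecin in parental cells and with prexasertib in knockout cells, and 790 (5.64%) showed the opposite pair of signs. Prexasertib was higher in both genotypes in 2631 regions and camptothecin in both in 1867. After each genotype was centred on its own median, the same 4 counts were 3547 (25.3%), 3539 (25.3%), 3438 (24.6%) and 3423 (24.4%). Reversal of the sign at the same locus was thus common as measured, and opposite and equal signs were nearly as frequent as each other once the common shift was taken out.

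At larger sizes the counts also moved with centring. In parental cells 1876 regions (13.4%) were at least 1.5-fold higher with camptothecin and 199 (1.42%) with prexasertib, and after centring 609 (4.35%) and 648 (4.63%). In knockout cells 2530 regions (18.1%) were at least 1.5-fold higher with prexasertib and 185 (1.32%) with camptothecin, and after centring 517 (3.69%) and 785 (5.61%). Past 1.5-fold in both genotypes, 366 regions were higher with camptothecin in parental and with prexasertib in knockout cells, and 7 the other way, beside 30 higher with prexasertib in both and 31 higher with camptothecin in both. After centring, these were 29, 70, 35 and 62. The near equality of the counts without a size limit thus did not hold here, and the reversal against the direction of the totals was the more frequent one.

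Differences of at least 2-fold were few. In parental cells 200 regions (1.43%) were at least 2-fold higher with camptothecin and 14 (0.1%) with prexasertib, and after centring 48 (0.343%) and 74 (0.528%). In knockout cells 254 regions (1.81%) were at least 2-fold higher with prexasertib and 15 (0.107%) with camptothecin, and after centring 34 (0.243%) and 103 (0.736%). Centring moves all regions of a genotype by one constant, so which side holds more regions depends on the scale. The 200 and the 254 regions had 5 in common, 2.5% of the parental set and 1.97% of the knockout set.

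Regions picked for a large difference in one genotype were then read in the other. The ratio of the other genotype was not used to pick them. Each region still had to be called in both libraries of that genotype, so the reading is not independent of it. The 200 parental regions had a median knockout ratio of 0.24 (0.18 to 0.29), against 0.30 over all regions. The 254 knockout regions had a median parental ratio of -0.24 (-0.29 to -0.17), against -0.22 over all. The 14 and the 15 regions of the rarer directions had medians of -0.06 (-0.42 to 0.12) in knockout and -0.20 (-0.57 to 0.13) in parental cells. The interval of the 14 lies below the median of all regions in knockout cells, and that of the 15 spans the median of all regions in parental cells.

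The shift was present in weak and in strong regions. With regions split into 5 equal bins by mean height over the 4 libraries, the parental median was -0.17, -0.24, -0.24, -0.24 and -0.20 from the lowest bin to the highest. The knockout median was 0.14, 0.28, 0.33, 0.34 and 0.32. It was nearest to 0 in the lowest bin in both genotypes, where a region had to pass the calling limit in all 4 libraries. In the highest bin the SD over regions was 0.24 in both genotypes against a counting error of 0.23 in both.

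**Figure D3:**
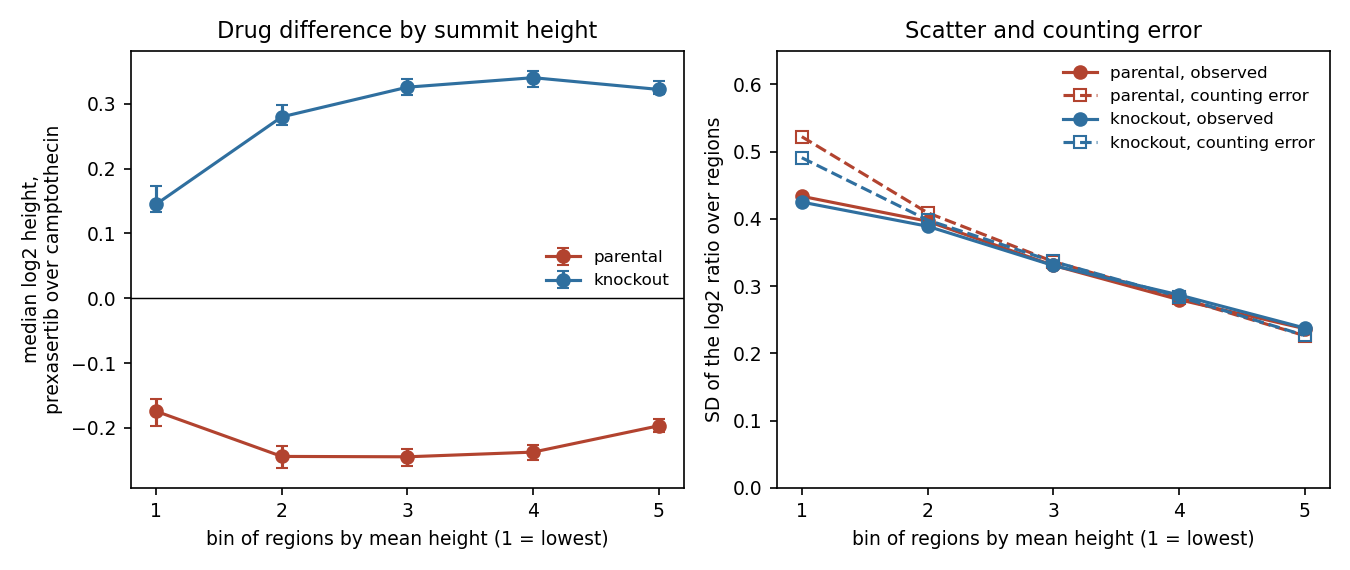
Left, median log2 height of prexasertib over camptothecin by bin of mean height in each genotype, with 95% order-statistic intervals; the sign is opposite in all 5 bins. Right, SD of the log2 ratio over the regions of each bin (filled) beside the SD that counting error of the pileups gives (open squares), which nearly coincide above the lowest bin.

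The opposite signs were found on all chromosomes, while the size of the ratios varied. The parental median was below 0 and the knockout median above 0 on 23 of 23 chromosomes. Chromosome 22 had the lowest parental median (-0.26) and chromosome 10 the highest (-0.17). Chromosome 18 had the lowest knockout median (0.23) and chromosome 15 the highest (0.36). On all 23 chromosomes more regions were called with camptothecin only than with prexasertib only in parental cells, and the opposite held in knockout cells on all 23. In windows of 10 Mb with at least 20 regions, 258 of 259 had a parental median below 0 and a knockout median above 0. Window medians ran from -0.46 to 0.27 in parental and from 0.01 to 0.46 in knockout cells. The parental and knockout medians had a Pearson r of -0.22 across the 259 windows, and of -0.50 (Spearman rho -0.43) across the 23 chromosomes. These are descriptions of 4 libraries, in which larger units average out more counting error than single regions do. The correlation across windows includes the window outside the pattern, described next, and was not taken again without it.

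The one window outside this pattern was chr16:40000001-50000000. Its 28 regions had a median ratio of 0.27 in parental cells and 0.03 in knockout cells. The local background at its summits was a median of 22.2 times the genome-wide background, and it was above 5 times in 17 of the 28. That window holds the heterochromatin beside the centromere in hg19, where satellite repeats lie.

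Regions of high local background differed from the rest more generally, a split that was made after the data were seen. Where the local background was at most 2 times the genome-wide one (3468 regions), the medians were -0.20 in parental and 0.17 in knockout cells. They were -0.24 and 0.31 between 2 and 3 times (3890 regions), -0.23 and 0.34 between 3 and 5 times (4202 regions) and -0.20 and 0.33 between 5 and 10 times (2171 regions). Above 10 times (273 regions) they were -0.06 and 0.14. Of 229 regions with a pileup of at least 100 in all 4 libraries, the 146 above 10 times had medians of 0.04 in both genotypes and a correlation across regions of -0.38. Their SDs were 0.23 and 0.24 against 0.15 and 0.14 from counting error. The 83 at or below 10 times had medians of -0.13 and 0.22, a correlation of -0.03, and SDs of 0.20 in both genotypes against 0.18 from counting error in both.

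Single regions were named by the size of their ratio among regions with a pileup of at least 20 in 1 library of the pair. They are the extremes of 14004 ratios per genotype, and positions are on hg19. No gene is given for them, since the gene tables at hand are on another build. In parental cells the tallest camptothecin excess was at chr10:21661934-21662318. Its height was 7.55 with prexasertib and 27.0 with camptothecin, a log2 ratio of -1.84 (counting interval -3.01 to -0.81), and in knockout cells it was 14.0 and 14.4. The drugs stood apart there in parental cells and level in knockout cells.

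At chr16:15187878-15188471 the parental height was 9.81 with prexasertib and 31.1 with camptothecin at 4 h, and 32.1 with prexasertib at 6 h. It was 10.2 at 2 h, and the region was not called in parental DMSO. The 4 h gap between the drugs was thus absent when the 6 h prexasertib library stood in. The region was chosen for a low ratio of prexasertib at 4 h over camptothecin. Its 4 h prexasertib value is low by choice, so a higher one at 6 h cannot be read as particular to this region. The knockout heights were 14.6 with prexasertib and 10.9 with camptothecin, a ratio of 0.42 (-0.48 to 1.35).

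At chr14:21493011-21493673 the parental heights were 7.55 with prexasertib and 24.9 with camptothecin, with no call in DMSO or at 2 h and a height of 18.4 at 6 h. All 5 knockout libraries held it, between 12.5 and 18.1. At chr12:57145171-57146320 the parental heights were 9.81 and 31.8, and at chr1:36915979-36916275 they were 6.79 and 21.4. In both, the 6 h prexasertib library was above the 4 h one, with a height of 26.9 at each. These regions were chosen for a low ratio of prexasertib at 4 h over camptothecin, so the 4 h value is low by choice. Over regions called in all lists, the median parental height with prexasertib was also higher, 39.4 at 6 h and 29.4 at 4 h. The higher 6 h values therefore cannot be read as particular to these regions.

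The largest prexasertib excess in parental cells was at chr14:60043213-60043789, with heights of 15.8 with prexasertib and 5.53 with camptothecin and a ratio of 1.52 (0.28 to 2.9). The knockout heights were 5.40 and 8.05. The other 4 of this direction had ratios between 1.13 and 1.20, and the interval of the lowest-ranked, chr10:117906901-117907633, ran from -0.04 to 2.38. One of them, chr16:35229024-35229356, had a ratio of 1.20 (0.40 to 2.04), with heights of 31.7 and 13.8 in parental cells and 32.4 and 32.8 in knockout cells, and it was not called in the parental 6 h list.

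In knockout cells the largest prexasertib excess was at chr20:33999475-34000267. Its height was 24.3 with prexasertib and 8.05 with camptothecin, a ratio of 1.59 (0.70 to 2.58), and in parental cells it was 22.6 and 23.5. Camptothecin in knockout cells was the low value among the 4. Knockout DMSO had 16.9, 2 h of prexasertib 20.5 and 6 h 15.0, so all other knockout libraries lay above camptothecin there.

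The same was seen at the other 4 knockout regions of this direction. At chr17:33894850-33895418 knockout camptothecin had 8.05 and the other knockout libraries lay between 18.1 and 23.8. At chr20:48687893-48688289 it had 6.32 against 8.53 to 18.4, at chr5:68855747-68856255 7.47 against 11.0 to 21.6, and at chr3:48282445-48282991 9.77 against 16.0 to 28.1. In these 5 regions, chosen for a high ratio of prexasertib over camptothecin, the DMSO, 2 h and 6 h values were not used in the choice, but they are set against the same low camptothecin value that was.

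The largest camptothecin excess in knockout cells was at chr1:101854357-101855193. Its height was 5.94 with prexasertib and 19.5 with camptothecin, a ratio of -1.72 (-2.85 to -0.70), and in parental cells it was 10.6 and 11.1. Here prexasertib at 4 h was the low value, since knockout DMSO had 13.2, 2 h 11.9 and 6 h 11.5. The region was chosen for a low ratio of prexasertib at 4 h over camptothecin, so that value is low by choice. The other 4 had ratios between -1.23 and -1.09, of which chr4:156874409-156875282 had the tallest camptothecin summit, 23.0 against 10.3 with prexasertib.

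Reversal at one locus was strongest, among regions that changed sign after centring, at chr10:102802465-102802934. In parental cells its height was 13.6 with prexasertib and 31.1 with camptothecin, a ratio of -1.20 (-2.07 to -0.38). In knockout cells it was 20.5 with prexasertib and 7.47 with camptothecin, a ratio of 1.46 (0.52 to 2.49). It was called in neither DMSO library. Prexasertib gave 8.80 at 2 h and 18.4 at 6 h in parental cells, and 16.2 at 2 h and 13.5 at 6 h in knockout cells. Camptothecin was thus the tallest of the parental libraries and the lowest of the knockout libraries that held a call.

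The regions ranked next are given by their 4 h heights. At chr10:120492154-120492720 the parental heights were 8.30 with prexasertib and 17.3 with camptothecin, and the knockout heights 15.7 and 5.75. At chr17:65780532-65781036 they were 8.30 and 17.3, and 16.2 and 6.90. The parental intervals of these reached 0.02 above no difference on the log2 scale.

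At chr6:24360049-24360542 the parental heights were 14.3 with prexasertib and 30.4 with camptothecin, and the knockout heights 15.7 and 7.47. At chr6:16129049-16129958 they were 14.3 and 29.1, and 17.8 and 8.62. In both, all intervals lay on one side of 0 in each genotype. In the last region the parental 6 h prexasertib library had the tallest summit of all, 40.0, above camptothecin. These 5 are the regions past 2-fold in both genotypes.

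The opposite reversal was weaker. Among its 5 leading regions, chr11:106465488-106465933 had parental heights of 21.9 with prexasertib and 13.8 with camptothecin, a ratio of 0.66 (-0.21 to 1.56), and knockout heights of 8.10 and 17.2, a ratio of -1.09 (-2.09 to -0.15). It was the only one of the 5 with an interval that left out 0 in either genotype.

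**Figure D4:**
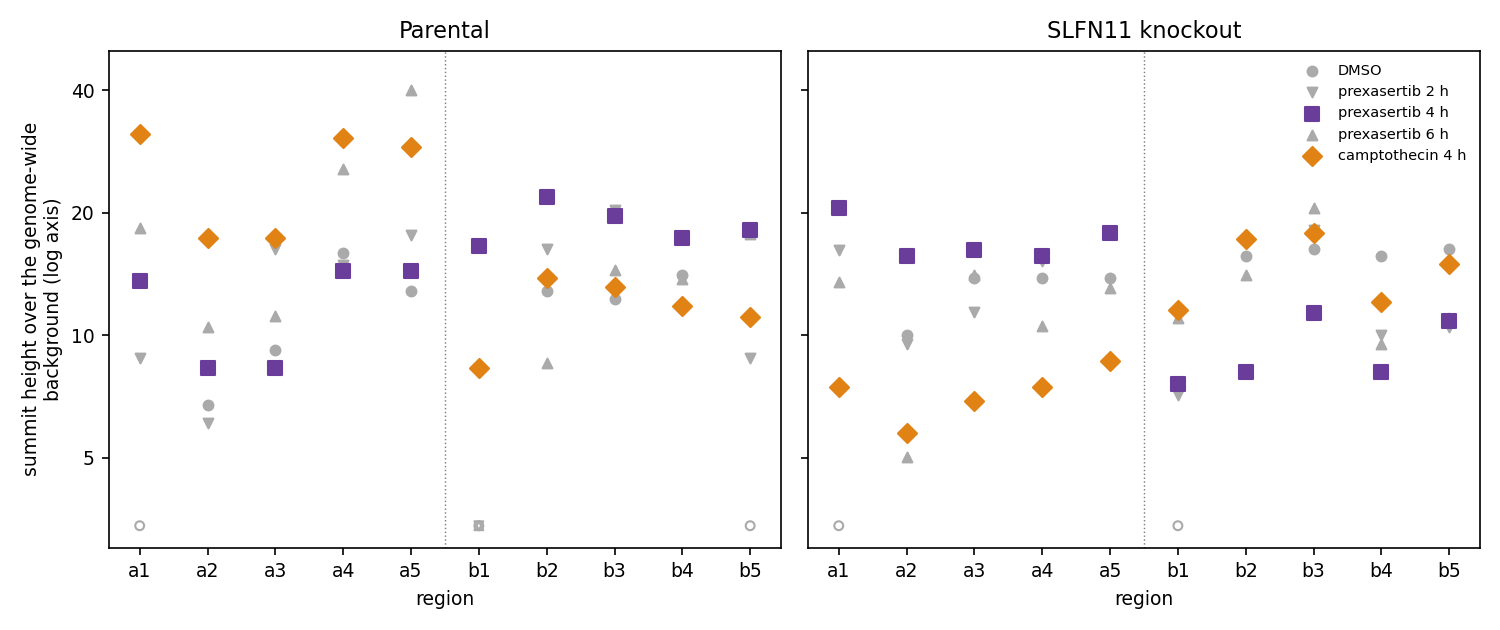
Summit height over the genome-wide background (log axis) in each parental and knockout library at the 5 leading regions of each direction of reversal: a1 to a5, camptothecin higher in parental and prexasertib higher in knockout cells, and b1 to b5, the opposite. Large coloured symbols are the 4 h libraries compared, small grey ones DMSO and prexasertib at 2 h or 6 h, and open symbols at the foot mark libraries without a call; the 4 h symbols swap order between the panels.

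The strongest single-drug regions lay mostly where other libraries were also tall. The parental prexasertib-only region of highest −log10 q, chr2:88124414-88124859, had a height of 256.5 there, between 163 and 218 in the 5 knockout libraries and about the same in parental DMSO, 223. It had no call in the parental camptothecin and 6 h lists. The knockout prexasertib-only leader, chr1:567268-567466, had a height of 2558 over a local background of 945 times the genome-wide one, in a stretch of hg19 that is known to hold a nuclear copy of mitochondrial DNA. The knockout camptothecin-only leader, chr4:49112426-49112858, had a height of 261 over a local background of 48.7 times. A missing call in such places sits beside tall signal in the other libraries.

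A set of 3 regions, singled out after their values were seen, had signal with parental prexasertib at 4 h and 6 h and no call elsewhere. At chr2:49456777-49456966 the summit reached 125 fragments, a height of 94.3, at 4 h in parental cells. The 6 h library had 9.18 and the other 8 libraries had no call. At chrX:125606350-125606644 the height was 75.5 at 4 h and 59.0 at 6 h in parental cells, with no call in the other 8 libraries. At chr8:144751621-144751806 it was 24.1 at 4 h and 21.6 at 6 h in parental cells, again with no call in the other 8.

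Among the single-drug regions whose local background was at most 5 times the genome-wide one, named after the data were seen, the parental camptothecin-only region chr14:107182933-107183425 had a height of 50.5. The 6 h prexasertib library had 53.8 there, and the DMSO, 2 h and 4 h parental lists had no call. Knockout DMSO had 33.2, knockout camptothecin 23.0, and knockout prexasertib at 4 h no call. The parental camptothecin-only region chr1:44435440-44435904 had 42.2, beside 37.4 with prexasertib at 6 h and 20.2 in DMSO. The knockout prexasertib-only region chr1:77481722-77481966 had 31.3, beside 29.5 in knockout DMSO and 12.5 at 6 h.

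The leading crossed regions ranged from tall summits on high local background to modest ones. The first, chr2:89869742-89869948, had 168 with parental camptothecin and 202 with knockout prexasertib, over local backgrounds of 29.4 and 36.2 times. The second, chr3:197825797-197826009, had 49.1 and 57.8 over local backgrounds of 6.03 and 7.07 times. Parental prexasertib had 52.1 at 2 h and 70.2 at 6 h there, on either side of the missing call at 4 h. At chr10:88698884-88699696 parental camptothecin had 20.8 and knockout prexasertib 17.3. It was called with prexasertib at 2 h (12.9) and 6 h (24.9) in parental cells and in knockout DMSO (10.0). At chr3:155271539-155271953 parental camptothecin had 24.2 and knockout prexasertib 19.4, with 12.5 at 6 h in parental cells and 10.0 in knockout DMSO. Of the opposite crossing, the first was chr7:57997205-57997592, with 52.1 with parental prexasertib and 52.3 with knockout camptothecin over local backgrounds of 6.63 and 7.58 times. The fourth, chr1:148767130-148767348, had 11.3 with parental prexasertib and 11.5 with knockout camptothecin.

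The other libraries were then placed on the same scale. Over 11565 regions called in all 10 lists, the median log2 height relative to camptothecin in parental cells was -0.85 in DMSO, -0.70 with 2 h of prexasertib, -0.23 with 4 h and 0.18 with 6 h. In knockout cells it was 0.20 in DMSO, 0.33 at 2 h, 0.31 at 4 h and 0.26 at 6 h. In parental cells camptothecin at 4 h thus stood above DMSO and the 2 h and 4 h libraries, and below the 6 h library. In knockout cells it stood below all 4. All values within a genotype share the camptothecin library.

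**Figure D5:**
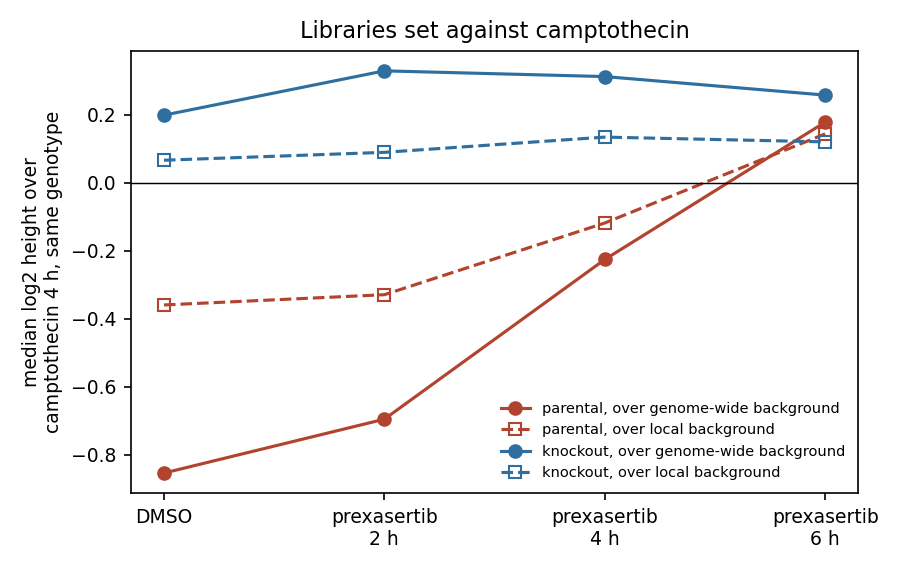
Median log2 height relative to the 4 h camptothecin library of the same genotype over 11565 regions called in all 10 lists, for DMSO and prexasertib at 2, 4 and 6 h; filled circles use the genome-wide background and open squares the local background (deposited fold). Parental values run from -0.85 in DMSO to 0.18 at 6 h, and all knockout values lie above 0.

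With the 6 h library in place of 4 h, the drug difference had the same sign in both genotypes. Prexasertib then held 58.5% of parental regions called with 1 drug, against 77.4% in knockout cells, and the median log2 height ratio was 0.16 in parental and 0.24 in knockout cells. With the 2 h library it was -0.67 and 0.32. The opposite sign in parental cells therefore held for prexasertib at 2 h and 4 h and not at 6 h, where the times of the drugs differ. Relative to the local background, by the deposited fold, the 4 h medians were -0.12 in parental and 0.13 in knockout cells.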

How the data were processed

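ATAC-seq libraries were made from nuclei of cultured cells, per the labels' protocols. The submitters' processing notes name MACS2 2.1.2, BWA 0.7.17, Picard 2.9.2, SAMtools 1.8, Trimmomatic 0.39, Trim Galore 0.6.2 and build hg19. Their parameters, the treatment of duplicates and any shift of reads are not given in the sources used here. One peak list per library was deposited. Its fold column (a ratio of summit to local background), −log10 p, −log10 q and score are the authors' deposited values for each summit, read in the narrowPeak layout.

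Lines with equal start and end were joined. Peaks on chromosomes 1 to 22 and X were merged where they overlapped by at least 1 bp. The deposited fold and −log10 p were solved together for a whole pileup, taking the fold as pileup plus 1 over background plus 1 and p as a Poisson tail. A whole pileup matched within 0.001 for 99.7% to 99.8% of summits per list. The lowest background so found is the genome-wide background of a library, and height is the pileup over it. The local background of a region is the geometric mean over the 4 libraries, or the value of one library where that library is named. Counting intervals of a ratio are exact binomial ones on the 2 pileups. Counting SDs are those of Poisson pileups. Positions are 1-based.

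Members, rules for naming and alternatives were chosen with earlier results of these data known. Named regions are the 5 highest and 5 lowest ratios per genotype, the 5 leading reversals per direction after centring, the 3 of highest −log10 q per single-drug class and the 5 leading crossed regions per direction, of which some are printed. Planned gene lists, cell type markers, a check of the SLFN11 locus and sequences were not used here, since the gene tables at hand are on another build than the lists. The steps were tested on simulated data. Python 3.11.15, numpy 2.4.6, pandas 2.3.3, scipy 1.17.1 and matplotlib 3.10.9 were used.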

Additional observations from a re-analysis of the deposited data

Results flagged for a closer look

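The direction of 3 measures differed between the genotypes, each with 1 library per group, so the difference was not tested. The median log2 summit height of prexasertib over camptothecin was -0.22 in parental and 0.30 in knockout cells. The median log2 peak width was -0.13 and 0.13. The share of prexasertib among regions called with 1 drug was 23.4% and 68.7%.

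Peaks outside chromosomes 1 to 22 and X entered no comparison and were more numerous than in the DMSO list of the same genotype. There were 423 with prexasertib and 561 with camptothecin in parental cells, against 283 in DMSO. There were 460 with prexasertib and 364 with camptothecin in knockout cells, against 361 in DMSO. Their order between the drugs is that of the lists as a whole.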

How the results depend on the processing

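Of 70 recomputed values, 12 stayed within the interval of the value given above or, for a count, within 1.5 times, 55 moved further and 3 medians or shares changed direction, all in parental cells with the 6 h prexasertib lists. Those were the share of prexasertib among regions called with 1 drug (58.5%), the median log2 height ratio (0.16) and the median log2 width ratio (0.0044). The cause was not tested. Of the counts past 2-fold, the larger side turned in both genotypes with centring, which moves all regions by one constant. No paired analysis was possible because each group is 1 library and the labels give no replicate numbers.

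The share was 32.1% in parental and 62.0% in knockout cells with a reciprocal overlap of 50%, 15.9% and 82.7% at a −log10 q of at least 10, 28.2% and 67.1% when scaled to the lowest background, and 14.7% and 81.5% with 2 h prexasertib. With 6 h it was 77.4% in knockout cells. Lists of equal length gave 49.1% and 50.9%, near equality by construction. Regions crossed in the direction of the totals numbered 702 at a −log10 q of at least 10, 445 with equal lists, 696 with 6 h and 1845 with 2 h. Those crossed the other way numbered 326 with reciprocal overlap, 27, 317, 237 and 52 in the same order.

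The parental and knockout height medians were -0.34 and 0.39 before division by the background, -0.12 and 0.13 by the deposited fold, -0.21 and 0.27 over regions called in both lists of the genotype and -0.67 and 0.32 with 2 h. The knockout median was 0.32 at a pileup of at least 20, 0.31 over regions in all 10 lists, 0.24 with 6 h and 0.28 where the local background was at most 5 times, chosen after seeing the data. Widths were -0.23 and 0.20 with 2 h, and 0.17 in knockout cells with 6 h.

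Counts past 2-fold, in the order parental prexasertib, parental camptothecin, knockout prexasertib and knockout camptothecin, were 74, 48, 34 and 103 after centring, 4, 41, 43 and 2 by the deposited fold and 8, 472, 489 and 7 before division. Past 1.5-fold they were 199, 1876, 2530 and 185. Regions of opposite sign numbered 3547 and 3539 after centring and 366 and 7 past 1.5-fold in both. Depth limits single regions, since a pileup of 10 to 30 fragments leaves an interval of about 2 log2 units.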
